A study of Arabidopsis thaliana with 15 samples.

Results

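The question addressed here is what differs in the inflorescence meristem when a line of Arabidopsis thaliana mutant for MYB3R4 is also mutant for MYB3R1. The 3 libraries labelled myb3r1myb3r4, called the double mutant, were compared with the 3 labelled myb3r4, which by label are also mutant for MYB3R4. The comparison covered the 21737 genes of 33326 that reached a TPM of 1 in 3 or more of the 15 libraries of the series. TPM is a transcript level corrected for transcript length and scaled to the same total in every library. Beside this comparison stand the 3 libraries labelled myb3r1 against the 3 of Col-0, the wild type. They ask about a mutation of the same gene, MYB3R1, in the other background. They share no library with the first comparison, and the labels do not say whether the allele is the same. The fifth group, pMYB3R4::GFP-MYB3R4mNES, entered the fit only for the estimate of the spread. For each library 36 meristems were pooled, taken from plants with stems of about 1 cm that grew under 16 h light and 8 h dark at 170 µmol m-2 s-1, 21 °C by day and 17 °C by night. The labels do not name the alleles or say whether replicates came from separate plantings, so the spread behind each p-value may be technical.

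MYB3R proteins are transcription factors with 3 MYB repeats that bind a short promoter element, the mitosis-specific activator (MSA) element. In Arabidopsis MYB3R4 is known mainly as an activator of genes of the G2 and M phases, MYB3R3 and MYB3R5 as repressors of the same genes in cells that are not dividing, and MYB3R1 as a member that can do either. Their known targets include B-type cyclins, kinesins of the dividing cell and KN (KNOLLE), the syntaxin that fuses vesicles into the new cell plate. The inflorescence meristem is the dome of dividing stem cells at the shoot tip that produces flowers.

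MSA cores stood upstream of some genes that moved in opposite directions between the 2 genotypes. The genes shown were chosen from those with a core. The windows below lie within the 300 bases before the annotated start of the gene in TAIR10.1 and are written 5′ to 3′ on the strand of the gene. Capitals mark the MSA core, AACGG, or its reverse complement CCGTT. KN and SCL28 (AT1G63100), a GRAS factor active around mitosis, were lower in the double mutant, and the other 4 genes were higher.
KN, chr1:2711001-2711032, minus strand: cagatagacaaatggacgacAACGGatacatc
SCL28, chr1:23402187-23402298, minus strand: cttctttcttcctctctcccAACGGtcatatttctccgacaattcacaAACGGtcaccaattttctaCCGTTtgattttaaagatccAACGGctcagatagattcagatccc
CYCB1;1, chr4:17624309-17624496, minus strand: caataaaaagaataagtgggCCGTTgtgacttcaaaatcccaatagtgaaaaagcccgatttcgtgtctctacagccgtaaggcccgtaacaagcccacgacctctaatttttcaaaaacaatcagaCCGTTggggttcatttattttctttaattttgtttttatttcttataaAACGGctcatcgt
KIN12B, chr3:8519005-8519113, plus strand: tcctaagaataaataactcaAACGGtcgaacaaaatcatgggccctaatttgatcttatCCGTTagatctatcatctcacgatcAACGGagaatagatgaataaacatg
3xHMG-box2, chr4:12390098-12390142, plus strand: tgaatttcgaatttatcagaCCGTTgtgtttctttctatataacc
TOPII, chr3:8624562-8624606, plus strand: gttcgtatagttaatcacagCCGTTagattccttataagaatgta

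The core was searched on both strands in the 300 bases upstream of 21468 tested genes. Among genes described below, none was found for CDKB1;1, BUBR1, CCS52B, MKK6, CYCB3;1 and CYCA2;4, which rose, or for ARR15, which fell. BGL2, a salicylic acid response gene that rose, held 1. At least 1 core was present for 24.7% of all tested genes, for 26.8% of the genes called higher in the double mutant and for 22.7% of those called lower. Among the gene lists described below, 61.1% of 18 mitotic cyclins and B-type CDKs and 50.0% of 28 cytokinesis genes held a core, as did 68.2% of 22 spindle checkpoint genes, 6 of 10 condensin and related genes and 69.2% of 13 histone genes. Other lists that rose for the most part were mixed. The core was held by 26.1% of 23 DNA replication genes, 28.6% of 21 anther genes and 46.7% of 15 meiosis genes. It was held by 1 of 10 D-type cyclins, 2 of 9 importins and exportins, 3 of 4 MYB3R genes and 2 of 4 heat shock genes. In the E2F, DP, RBR1 and DREAM list and the DNA damage list, with fewer rises and no falls, shares were 47.1% of 17 and 50% of 12. Of 16 CDK inhibitors, 56.2% held one, and of these 16 genes 3 were called higher, 3 lower and 10 neither. The longer form TCNAACGG, which contains the core, was present for 2.79% of all tested genes, 3.59% of those higher and 2.63% of those lower. E2F sites, TTTCCCGC or TTTGGCGC, were present for 1.09% of all tested genes, 1.86% of those higher and 0.634% of those lower. Of the 23 DNA replication genes, 47.8% held an E2F site. The W-box, TTGACC or TTGACT, is the binding site of WRKY factors. It was present for 31.2% of all tested genes for 33.5% of those higher and for 27.9% of those lower. Among genes with a change of at least 2-fold it was present for 43.3% of 217 called higher and 34.3% of 638 called lower. In the salicylic acid list described below it was present for 4 of 20 genes. Such matches describe letters in a window and were not tested as binding sites.

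The transcripts of the MYB3R family were examined first. MYB3R1 (AT4G32730) was at 14.44, 14.83 and 14.02 TPM in myb3r4 and at 15.18, 14.09 and 14.02 TPM in the double mutant, so the groups overlapped. The log2 difference was -0.00071 (SE 0.048, limma adjusted p = 0.996, n = 3 per group). TPM is summed over the gene, so it cannot show whether the transcript is interrupted, and it gives no check of the genotype label. MYB3R4 (AT5G11510) was at 12.7, 13.4 and 13.0 TPM in myb3r4 and at 17.05, 16.8 and 17.36 TPM in the double mutant, with every double-mutant library above every myb3r4 library. It rose by 0.38 (SE 0.066, limma adjusted p = 0.000914). Neither transcript was lower in the line named after it. MYB3R1 was at 13.45, 13.07 and 13.36 TPM in Col-0 and at 17.24, 18.05 and 17.48 TPM in myb3r1, a rise of 0.39 (limma adjusted p = 0.000421), and MYB3R4 was at 12.81, 10.45 and 10.42 TPM in Col-0, a range that overlaps its range in myb3r4. MYB3R3 rose by 0.41, from a mean of 8.35 to 11.3 TPM, and MYB3R5 by 0.44, from 4.04 to 5.69 TPM. MYB3R2 stayed under 0.6 TPM in all 6 libraries and was not tested.

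The step from myb3r4 to the double mutant moved a large share of the transcriptome. Of 21737 genes, 7544 (34.71%) passed an adjusted p of 0.05 in limma, 4365 (20.08%) higher and 3179 (14.62%) lower in the double mutant. For 28.62% of the tested genes all 3 double-mutant libraries lay above all 3 of myb3r4, and for 19.12% below them, which is the background for statements on groups without overlap. With median-of-ratios scaling of the TPM the split was 3113 higher and 3944 lower as the median log2 difference of all genes moved from 0.0387 to -0.00258. Most changes were small. The median change was 0.284 among genes called higher and -0.438 among those called lower, while 220 rose and 641 fell by at least 2-fold. Fold changes are differences of log2(TPM + 0.5), which understate the change of genes near 0 TPM. Log2 values of a myb3r4 and a double-mutant library correlated across genes with r between 0.954 and 0.975 (9 pairs), and those of replicates with r between 0.985 and 0.988. Genes are not independent replicates.

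Markers of other cell types moved between the groups as well, and these values belong beside every gene group below. The 9 inflorescence meristem markers summed to 538 to 562 TPM in myb3r4 and 541 to 565 TPM in the double mutant. Of the 8 tested, 2 were called higher and 2 lower, so a like sum does not mean unchanged members. The set includes the floral genes LFY, AP1, AP3 and AG. CLV3, a peptide made by the stem cells, was at 0 to 0.275 TPM in both groups, while STM and WUS were measured at 49.2 to 62.0 and 6.73 to 11.6 TPM. All 7 tapetum markers were higher in the double mutant, with sums of 715 to 865 TPM in myb3r4 and 1410 to 1670 TPM in the double mutant. Pollen markers went the other way, from 233 to 465 TPM down to 50.8 to 120 TPM, with 4 of 5 tested called lower. Sums of xylem and phloem markers were 128 to 132 TPM in myb3r4 and 101 to 112 TPM in the double mutant. In the same order, those of the guard cell lineage were 56.8 to 59.3 and 47.9 to 51.0 TPM. Meiocyte sums were 24.0 to 26.8 and 34.4 to 35.1 TPM. Green tissue sums were 7890 to 8060 and 6590 to 7190 TPM, although 2 of the 4 markers were called higher and 2 lower. In a pooled tissue, fewer cells of a type and less RNA per cell cannot be told apart. All markers are also members of the gene lists described below, so marker sums and list counts are not separate observations. The part of these shifts in the results below was not tested.

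**Figure D1:**
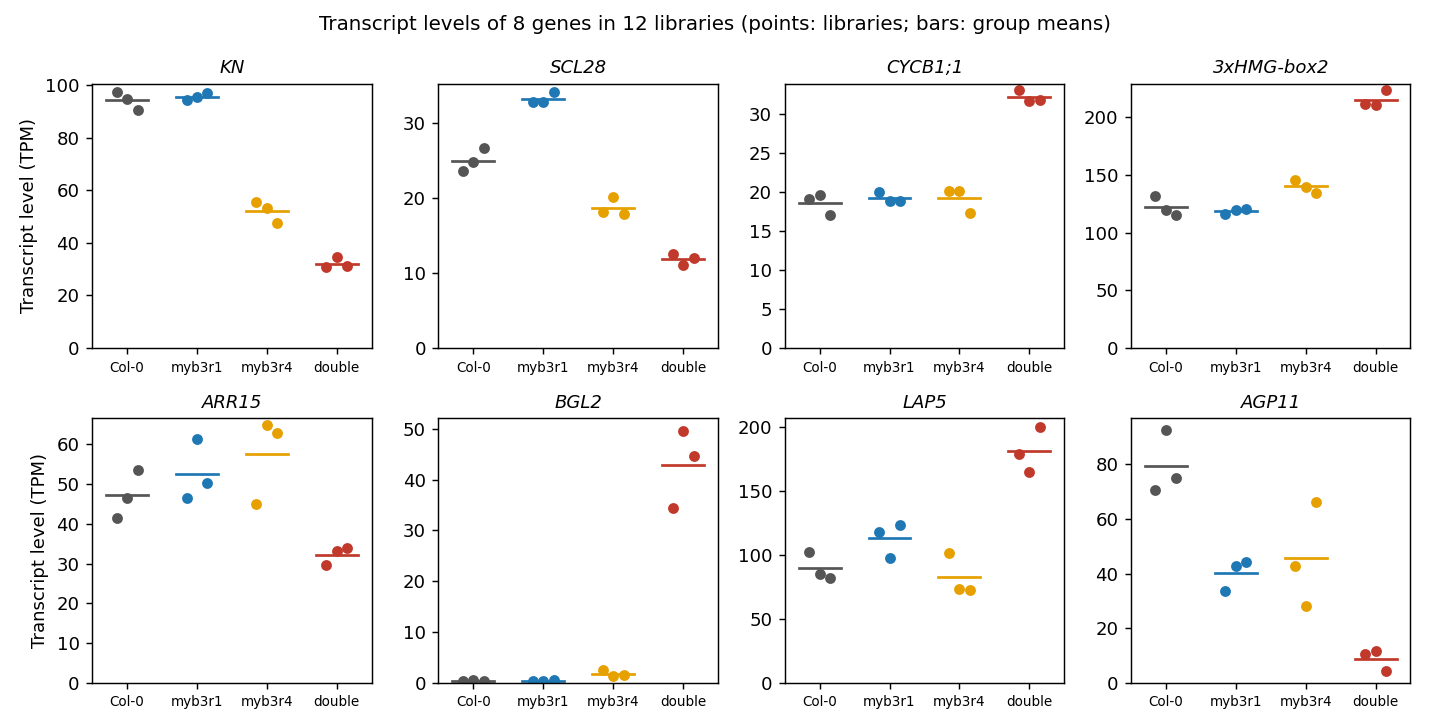
Transcript level in TPM (vertical axes, starting at 0) of 8 genes in Col-0, myb3r1, myb3r4 and the double mutant. Points are the 3 libraries of a group and bars their means; in each panel the 3 double-mutant points lie apart from the 3 myb3r4 points, lower for KN, SCL28, ARR15 and AGP11 and higher for CYCB1;1, 3xHMG-box2, BGL2 and LAP5.

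Genes of cell division were for the most part higher in the double mutant. Among 18 mitotic cyclins and B-type cyclin-dependent kinases (CDKs), which drive entry into mitosis, 12 rose and none fell, where 20.08% of all tested genes rose and 14.62% fell. The median of the list was 0.25, against 0.0387 over all genes. CYCB1;1, the cyclin often used as a marker of G2 and M cells, was at 20.15, 20.17 and 17.29 TPM in myb3r4 and at 33.1, 31.6 and 31.7 TPM in the double mutant. The groups did not overlap, and the rise was 0.73 (SE 0.073, limma adjusted p = 1.99e-05). CYCA2;4 rose by 0.69, CYCB3;1 by 0.67 and CDKB1;1, a plant-specific kinase of the G2 phase, by 0.53. The rise was not shared by all B-type cyclins. CYCB1;2 was at 52.3 to 58.8 TPM in myb3r4 and 49.4 to 57.4 TPM in the double mutant, and CYCB2;2 at 7.91 to 8.61 and 7.59 to 8.38 TPM. CYCB2;1 was at 2.45 to 3.31 and 1.80 to 2.39 TPM, a difference of -0.35 (limma adjusted p = 0.0597) that passed the threshold with a pseudocount of 0.1 (adjusted p = 0.0495), with median-of-ratios scaling (adjusted p = 0.0425) and without double-mutant replicate 2 (adjusted p = 0.0426).

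The spindle checkpoint, kinetochore and anaphase-promoting complex (APC) list showed 14 of 22 members higher and 1 lower. The shares over all tested genes were 20.08% and 14.62%. BUBR1, a kinase-related protein of the spindle checkpoint, was at 18.6, 18.3 and 17.2 TPM in myb3r4 and at 27.7, 29.2 and 28.3 TPM in the double mutant. It rose by 0.64 (SE 0.062, limma adjusted p = 1.41e-05). CCS52B, an activator of the APC, rose by 0.55, and WYR, the plant relative of the inner centromere protein, by 0.51. The member that fell was SCL28, at 18.1, 20.16 and 17.93 TPM in myb3r4 and 12.55, 11.07 and 12.01 TPM in the double mutant. Its fall of -0.64 (SE 0.064, limma adjusted p = 1.99e-05) stood against levels of 23.6 to 26.7 TPM in Col-0 and 32.8 to 34.1 TPM in myb3r1. The count of members higher was 9 without double-mutant replicate 3 and 9 with median-of-ratios scaling.

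Cytokinesis genes followed the same split. Of 28 genes of the phragmoplast and cell plate, 22 rose and 2 fell, beside 20.08% and 14.62% over all tested genes. The median was 0.32. MKK6, a kinase of the cascade that expands the phragmoplast, rose by 0.66. The phragmoplast kinesins KIN12A and KIN12B rose by 0.59 and 0.54, and ATK5, a kinesin of the spindle, by 0.54. KIN12B was at 13.0, 13.3 and 12.1 TPM in myb3r4 and at 18.7, 19.1 and 18.8 TPM in the double mutant, a narrow spread in each group. KN was at 55.7, 53.1 and 47.6 TPM in myb3r4 and at 30.7, 34.4 and 31.2 TPM in the double mutant, all 3 below the lowest myb3r4 library. It fell by 0.69 (SE 0.058, limma adjusted p = 6.00e-06). The means of KN in Col-0 and myb3r1 were 94.1 and 95.6 TPM, so the order of the 4 groups was Col-0 and myb3r1, which did not differ beyond the test, then myb3r4, then the double mutant. PATL4, a patellin lipid-transfer protein, fell by 0.13.

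Chromosome structure and replication genes were for the most part higher, where 20.08% of all tested genes rose and 14.62% fell. Of 10 condensin subunits, topoisomerase II and 3xHMG-box proteins, which shape mitotic chromosomes, 9 rose and none fell, with a median of 0.42. 3xHMG-box2 was at 146, 140 and 135 TPM in myb3r4 and at 211, 210 and 224 TPM in the double mutant, a rise of 0.62 (SE 0.049, limma adjusted p = 4.02e-06). TOPII, the type II topoisomerase, rose by 0.48. The member that did not pass was the condensin II subunit CAP-D3, with a difference of 0.23 (limma adjusted p = 0.0828). DNA replication genes rose in 17 of 23 cases and fell in none, with a median of 0.27. Among them, CDC6B, which loads the replicative helicase, rose by 0.48 and PCNA2, the sliding clamp, by 0.37. The count of replication genes higher was 13 with median-of-ratios scaling and when only the groups compared were fitted. It was also 13 without double-mutant replicate 1 or 3 or myb3r4 replicate 3. Histone H4 and H3.1 genes, which are transcribed in S phase, rose in 11 of 13 cases, with a median of 0.32. The H4 gene AT5G59690 was at 958, 967 and 880 TPM in myb3r4 and at 1185, 1204 and 1309 TPM in the double mutant. The H3.1 gene AT5G10400 rose by 0.42. Copies of a histone gene are nearly identical, so values of single copies are uncertain.

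Regulators upstream of the cycle moved in both directions, where 20.08% of all tested genes rose and 14.62% fell. Of 17 E2F, DP, RBR1 and DREAM-complex genes, 7 rose and none fell, with a median of 0.17, and 4 were called higher without myb3r4 replicate 3. Without myb3r4 replicate 2, 1 member was lower, and with median-of-ratios scaling 2 were. The atypical E2F factors DEL1 and DEL3 rose by 0.37 and 0.36. D-type cyclins, which act at the entry to the cycle, rose in 6 of 10 cases and fell in 1. CYCD3;3 rose by 0.57, from a mean of 63.5 to 94.2 TPM, and CYCD4;1 by 0.50. CYCD7;1, known for the last division of the stomatal lineage, fell by 1.13 at levels near 1 TPM. Of 16 CDK inhibitors, 3 fell and 3 rose (18.8% each), near the 14.62% lower and 20.08% higher over all tested genes. The count higher was 1 without double-mutant replicate 3, myb3r4 replicate 2 or myb3r4 replicate 3. SMR2, of the plant SIAMESE-related family, was at 16.5, 17.3 and 20.6 TPM in myb3r4 and at 10.2, 8.997 and 7.86 TPM in the double mutant. It fell by 0.97 (SE 0.11, limma adjusted p = 5.27e-05), and KRP6 fell by 0.43, while SMR4 rose by 0.66. The rises of KRP3 by 0.39 and of SMR6 by 0.21 were less firm. KRP3 was no longer called without double-mutant replicate 3 (limma adjusted p = 0.102), myb3r4 replicate 2 (adjusted p = 0.0559) or myb3r4 replicate 3 (adjusted p = 0.0687). SMR6 lost its call in 11 of 16 repeats under other settings or without 1 library, with limma adjusted p-values from 0.0584 to 0.135, among them those without any 1 of the 3 double-mutant libraries or without myb3r4 replicate 2 or 3. Of 12 DNA damage genes, 5 rose (41.7%, against 20.08% of all tested genes). Among them WEE1, a kinase that holds cells before mitosis after DNA damage, rose by 0.47.

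**Figure D2:**
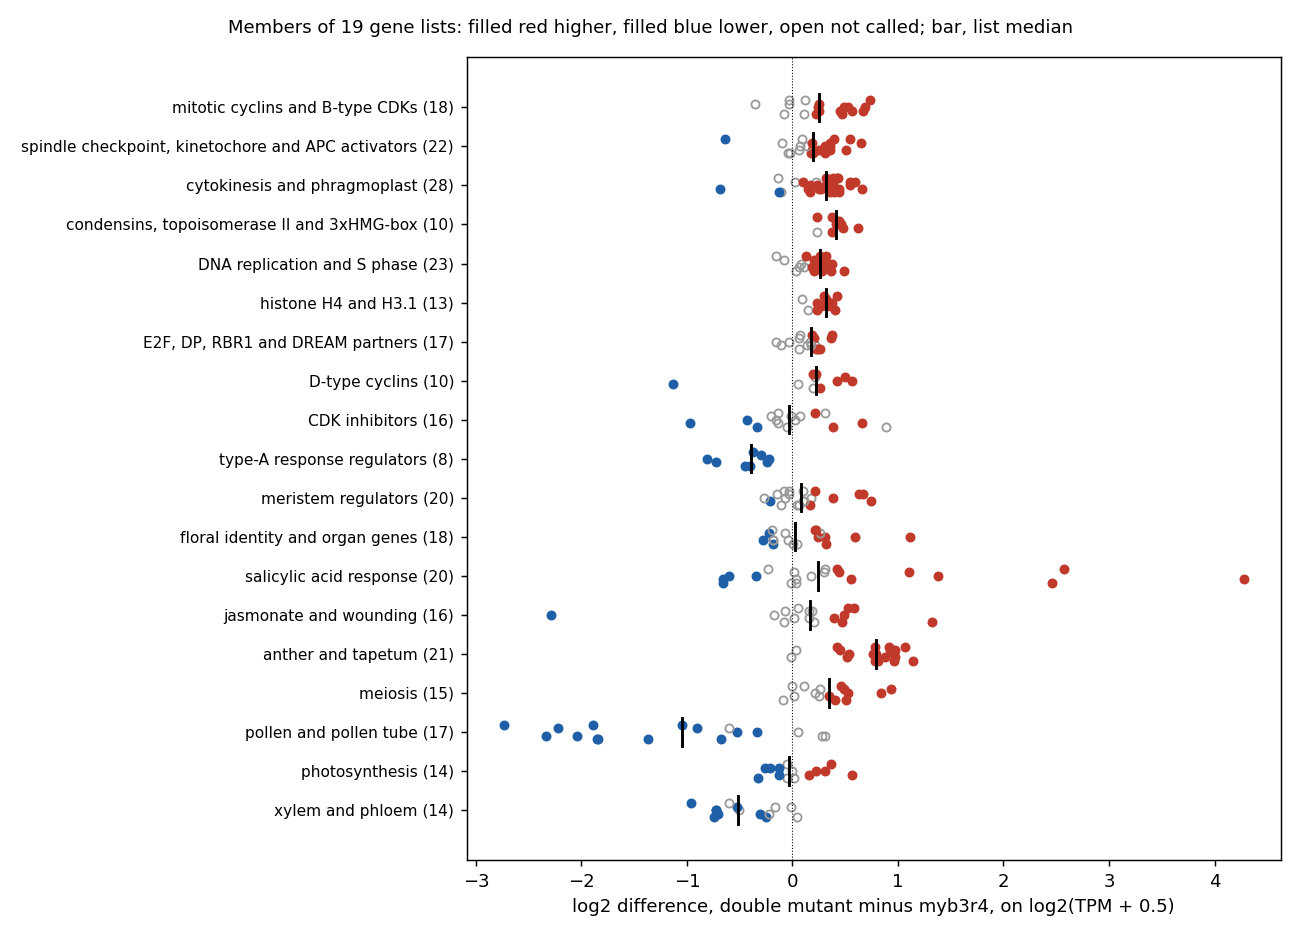
Log2 difference between the double mutant and myb3r4 (horizontal axis) for the tested members of 19 gene lists (rows, with the number tested). Filled red points passed the test higher, filled blue points lower, open points did not pass, and the bar is the list median; KN and SCL28 are the blue points near -0.69 and -0.64 in rows that are otherwise mostly red.

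Type-A response regulators, which cytokinin induces and which damp its signal, were lower as a group. All 8 tested members fell, where 14.62% of all tested genes fell, with a median of -0.39. ARR15 was at 44.9, 64.8 and 62.9 TPM in myb3r4 and at 29.8, 33.2 and 33.9 TPM in the double mutant, without overlap, and fell by 0.81 (SE 0.14, limma adjusted p = 0.000923). ARR9 fell by 0.72, from 20.9, 21.7 and 23.6 TPM to 13.4, 13.6 and 12.5 TPM. The other 6 changes were smaller. With only the groups compared in the fit 5 of the 8 fell, with no variance trend 7, and with no filter on level 7 of 10. The count fell to 3 without double-mutant replicate 3, to 4 without myb3r4 replicate 2 or 3 and to 5 without double-mutant replicate 1 or 2, and none was called higher in any of these. Of 16 receptors, phosphotransfer proteins and type-B regulators, which stand upstream, 2 rose (12.5%), against 20.08% of all tested genes. The type-B factor ARR12 was among them and rose by 0.32. The 1 fall in that list was lost without any library but myb3r4 replicate 1. Of 14 genes of cytokinin synthesis and degradation, 4 rose (28.6%) and 3 fell (21.4%), beside 20.08% and 14.62% over all tested genes. Without double-mutant replicate 3, 2 rose. LOG5 and LOG3, enzymes that release active cytokinin, rose by 0.90 and 0.65. IPT3, which makes the cytokinin precursor, fell by 0.98 at levels near 1 TPM, and the cytokinin oxidases CKX2 and CKX3 fell by 0.81 and 0.56. CKX2 lost its call when only the groups compared were fitted (limma adjusted p = 0.0543).

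Of 20 tested regulators of the meristem itself, 6 rose and 1 fell, a share called in either direction near the 34.71% of all tested genes. CUC1, a factor of organ boundaries, was at 9.50, 7.05 and 8.10 TPM in myb3r4 and at 13.7, 14.5 and 13.8 TPM in the double mutant, a rise of 0.75 (SE 0.12, limma adjusted p = 0.000637). CUC2 rose by 0.63 and AS2, which sets the upper side of organs, by 0.66. The member that fell was STM, which keeps meristem cells undifferentiated, by 0.21 from a mean of 58.1 to 50.1 TPM. Its call was lost without double-mutant replicates 2 (limma adjusted p = 0.0611) or 3 (adjusted p = 0.0692) or myb3r4 replicates 1 (adjusted p = 0.0531) or 2 (adjusted p = 0.0917). WUS, the stem cell regulator, was at 10.5, 8.52 and 11.6 TPM in myb3r4 and at 8.21, 10.4 and 6.73 TPM in the double mutant. Its difference of -0.27 did not pass (limma adjusted p = 0.138), but without double-mutant replicate 2 it was -0.42 (adjusted p = 0.0215). Floral identity and organ genes rose in 7 of 18 cases (38.9%) and fell in 3 (16.7%), beside 20.08% and 14.62% over all tested genes. Their median was near 0, and it was negative under median-of-ratios scaling. LFY, the factor that makes a meristem a flower, was at 5.81, 3.55 and 4.099 TPM in myb3r4 and at 10.97, 8.89 and 10.5 TPM in the double mutant. It rose by 1.11 (SE 0.15, limma adjusted p = 0.00015). PI, a petal and stamen identity gene, rose by 0.32, and AP1, a sepal and petal identity gene, fell by 0.22.

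The largest rise among genes whose libraries did not overlap was that of BGL2. This gene, a glucanase that responds to salicylic acid, was at 2.45, 1.31 and 1.55 TPM in myb3r4 and at 34.4, 49.6 and 44.7 TPM in the double mutant. It rose by 4.27 (SE 0.19, limma adjusted p = 3.50e-08). PR5, a thaumatin-like protein, was at 3.53, 3.51 and 4.42 TPM and rose to 20.5, 34.7 and 22.2 TPM. PNP-A, a secreted natriuretic peptide, rose by 2.46 and DMR6, an enzyme that inactivates salicylic acid, by 1.38. The chitinase gene CHI rose by 3.00, the chitinase family gene AT2G43620 by 2.61, the glutathione transferase GSTF7 by 3.204, the calmodulin-like CML41 by 2.69 and the uncharacterized AT1G58225 by 3.16. The whole salicylic acid list was mixed, with 8 of 20 tested members higher (40%) and 4 lower (20%), beside 20.08% and 14.62% over all tested genes. The count lower was 1 without double-mutant replicate 1 or myb3r4 replicate 1 and 2 without myb3r4 replicate 2 or 3. PR1, its best-known marker, was at 0 to 0.821 TPM in the 6 libraries and was not tested. CBP60G, a factor that switches on salicylic acid synthesis, rose by 1.103 from a mean of 1.37 to 3.58 TPM, a call lost without double-mutant replicate 2 (limma adjusted p = 0.0507). Of 16 jasmonate and wounding genes, 6 rose (37.5%) and 1 fell (6.25%), where 20.08% of all tested genes rose and 14.62% fell. AOC2, which makes a jasmonate precursor, rose by 1.32, and VSP1, a storage protein, rose by 0.53 from 3356, 3058 and 3404 TPM to 4704, 4625 and 4844 TPM. JAZ7, a repressor of jasmonate responses, fell by 2.29.

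Genes of anther development and of mature pollen moved in opposite directions. The tapetum and pollen markers summed above are members of these same lists, so their sums are not a separate observation. Of 21 anther and tapetum genes, 19 rose and none fell, with a median of 0.80. Over all tested genes, 20.08% rose and 14.62% fell. LAP5, an enzyme of the pollen wall polymer sporopollenin, was at 101, 73.5 and 72.9 TPM in myb3r4 and at 179, 165 and 201 TPM in the double mutant. The groups did not overlap, and LAP5 rose by 1.14 (SE 0.20, limma adjusted p = 0.000916). CYP704B1, of the same pathway, rose by 1.07, the tapetum gene A9 by 0.96 and the tapetum factor TDF1 by 0.82. LTP12 was at 847 to 988 TPM and 866 to 933 TPM and did not pass the test. Meiosis genes rose in 8 of 15 cases and fell in none, among them TDM1, needed to leave meiosis, by 0.94, SPO11-1, which cuts DNA for crossovers, by 0.84, and the recombinase DMC1 by 0.46. Of 17 pollen and pollen tube genes, 13 fell and none rose, with a median of -1.05; without myb3r4 replicate 1, 1 member rose. AGP11, a pollen cell-surface proteoglycan, was at 42.8, 28.3 and 66.1 TPM in myb3r4 and at 10.5, 11.8 and 4.27 TPM in the double mutant. It fell by 2.34 (SE 0.32, limma adjusted p = 0.0002), as did VGDH1 by 2.74, PPME1 by 2.04 and the peptide gene RALFL19 by 2.22. Spread between myb3r4 libraries was wide for these genes, with replicate 2 the lowest. MYB21, a factor of stamen filaments, fell by 3.27 to a level listed at 0 in 2 of 3 libraries. Among small secreted peptides, LCR11 was at 5.77, 11.5 and 5.75 TPM in myb3r4 and listed at 0 in all 3 double-mutant libraries, and AT5G60615, a defensin-like gene, fell by 4.77.

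Of 14 xylem and phloem genes, 8 fell, 6 did not pass and none rose, where 14.62% of all tested genes fell, with LAC4, a laccase of lignin, at -0.96 and IRX3, a cellulose synthase of secondary walls, at -0.74. FAMA, which completes guard cell fate, fell by 0.55 as 1 of 2 falls among 6 genes of its lineage, of which the other 4 did not pass. Photosynthesis genes were divided, with 5 of 14 higher and 5 lower (35.7% each), beside 20.08% and 14.62% over all tested genes. The count lower was 3 without double-mutant replicate 3 or myb3r4 replicate 3. LHCB1.1, an antenna protein of photosystem II, rose by 0.57 and its relative LHCB2.1 by 0.37, while RCA, the activase of Rubisco, fell by 0.32 and RBCS1A, a Rubisco subunit, by 0.26. Of the remaining lists, 5 of 9 importins and exportins, 3 of 8 clock genes and 3 of 4 heat shock genes rose. In these lists 1 clock gene fell, beside 20.08% higher and 14.62% lower over all tested genes. The fall of the clock gene was lost whichever double-mutant or myb3r4 library was left out. It was also lost without the variance trend and with replicate number as a block.

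From Col-0 to myb3r1, fewer genes were called, 1360 (6.26%), with 687 higher (3.16%) and 673 lower (3.1%). That count fell to 796, 880 or 757 without myb3r1 replicate 1, 2 or 3 and to 662 or 804 without Col-0 replicate 2 or 3. Of the 4365 genes higher in the double mutant, 289 (6.62%) were also called higher in myb3r1 against Col-0, which is 42.1% of the 687. Of the 3179 lower, 347 (10.9%) were also lower in myb3r1, or 51.6% of the 673. Opposite calls were made for 72 and 105 genes. Across all tested genes the 2 sets of log2 differences correlated with r = 0.441, a description of genes and not of replicates.

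Whether the step differs between the backgrounds was tested per gene as an interaction, and 2665 genes (12.26%) passed, 1371 with a positive interaction (6.31%) and 1294 with a negative one (5.95%). The interaction had the same direction as the change in the double mutant for 27.2% of the genes higher and 33.8% of those lower. Because the interaction is computed from that same change, a shared direction is in part built in. For KN the difference was 0.02 from Col-0 to myb3r1 and -0.69 from myb3r4 to the double mutant, an interaction of -0.71 (SE 0.082, limma adjusted p = 0.000161). SCL28 rose by 0.41 in myb3r1 and fell by 0.64 here, an interaction of -1.04. In the cytokinesis list, 5 of 28 members were higher in myb3r1 than in Col-0, none was lower, and 17 had a called interaction, 15 of them positive. All 8 type-A response regulators missed the threshold in myb3r1 against Col-0, and 4 of them had a negative interaction. Photosynthesis genes differed in the other background, with 11 of 14 lower in myb3r1 than in Col-0 and none higher. LHCB1.1 fell by 1.67 there, from a mean of 311 to 97.8 TPM, and stood at a mean of 73.6 TPM in myb3r4 before its rise to 110 TPM. MAF5, a MADS-box repressor of flowering, was at 1.01, 1.69 and 2.51 TPM in myb3r4 and at 12.1, 16.0 and 12.8 TPM in the double mutant. It rose by 2.71 (limma adjusted p = 3.62e-06), whereas from Col-0 to myb3r1 it fell by 1.28. PRR7, a clock gene, rose by 0.43 and fell by 0.54 in the same comparisons. BT2, which responds to nutrients and light, was at 50.3, 50.1 and 58.0 TPM in myb3r4 and at 3.96, 9.15 and 1.68 TPM in the double mutant, but its mean was 17.7 TPM in Col-0, so myb3r4 stood above both neighbours.

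**Figure D3:**
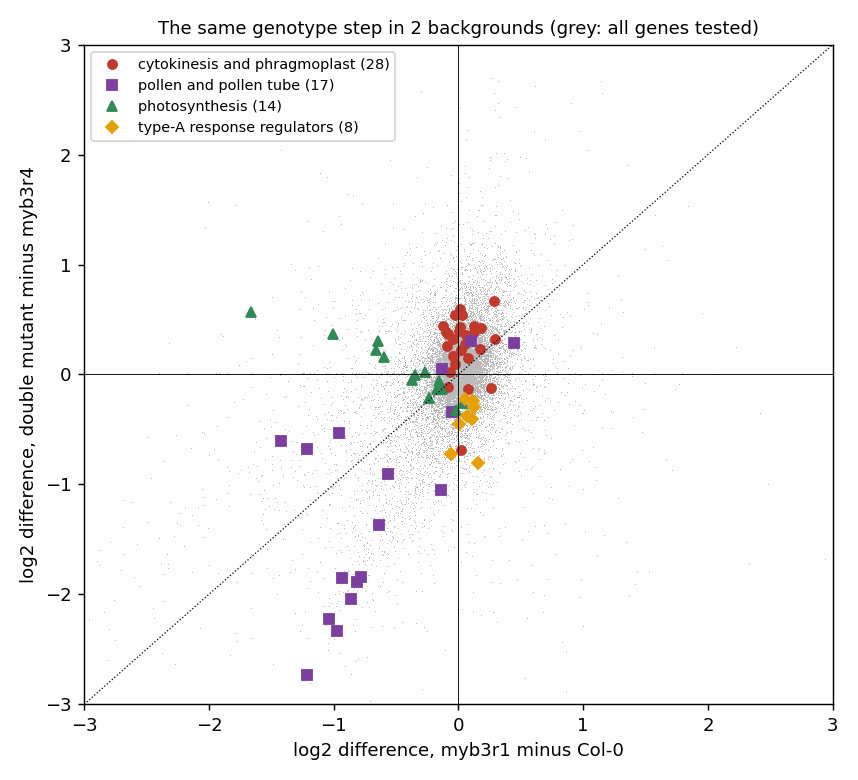
Log2 difference between myb3r1 and Col-0 (horizontal axis) and between the double mutant and myb3r4 (vertical axis) for all tested genes within 3 units (grey) and for 4 gene lists (symbols); the dotted line marks equal differences. Cytokinesis genes and type-A response regulators spread along the vertical axis, pollen genes lie lower left and photosynthesis genes to the left.

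Calls were spread unevenly over the chromosomes. On chromosome 5, 27.3% of tested genes were higher and 11.4% lower, and on chromosome 4, 21.9% and 13.3%. On chromosomes 1, 2 and 3 the shares higher were 17.9%, 15.4% and 17.7% and the shares lower 15.2%, 17.1% and 17.0%. The median log2 difference was 0.0784 over chromosome 5 and 0.0562 over chromosome 4, against 0.0312, 0.00981 and 0.0193 over chromosomes 1, 2 and 3. Within chromosome 5, the medians of 10 equal groups of neighbouring genes ran from 0.058 to 0.0973, and within chromosome 4 from 0.0352 to 0.0745. For the step from Col-0 to myb3r1, the medians per chromosome were 0.00663 to 0.0141. Per library, relative to the library median and the mean of the other 12 libraries, genes of chromosome 5 stood at 0.0276, 0.0449 and 0.0506 in the double mutant and between -0.00439 and 0.00477 in the other 12. Chromosome 2 stood at -0.0207, -0.0484 and -0.0155, and at -0.00314 to 0.00358 in the others. MYB3R1 lies on chromosome 4 and MYB3R4 on chromosome 5. Within 1 Mb of MYB3R1, 33.9% of 472 genes were called in either direction, and within 1 Mb of MYB3R4, 34.3% of 496. With every chromosome set to the library median, 4289 genes were called higher and 3137 lower.

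**Figure D4:**
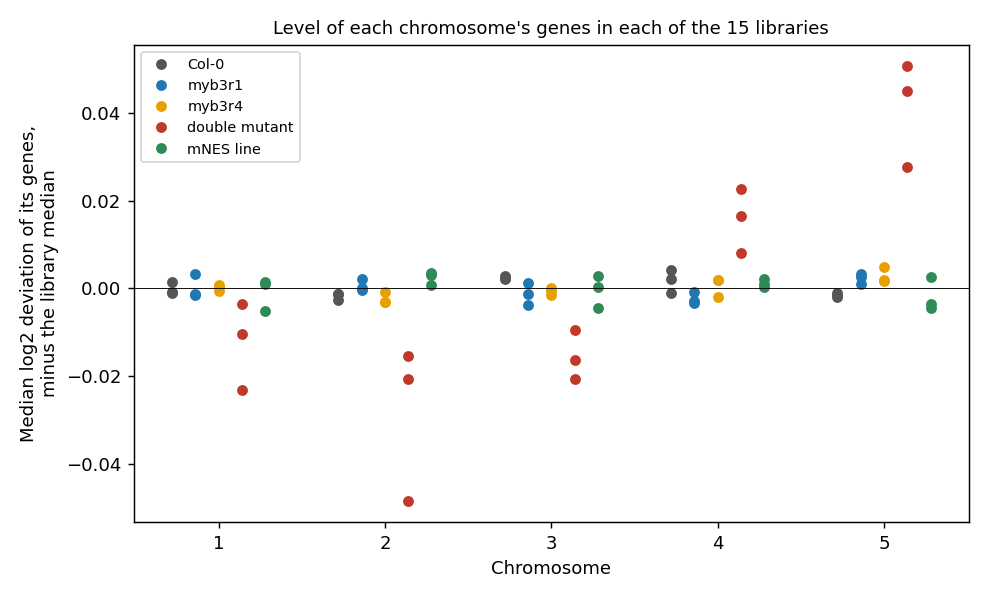
Median log2 deviation of the genes of each chromosome (horizontal axis) from their mean in the 12 libraries other than the double mutant, minus the library's median over all genes (vertical axis), 1 point per library. Double-mutant libraries lie above the other 12 on chromosomes 4 and 5 and below them on chromosomes 2 and 3.

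Called genes also differed in level and length. Of 5301 genes under 5 TPM, 12.2% were higher and 15.9% lower, and of 1720 genes over 100 TPM, 25.2% and 25.6%. The median standard error was 0.198 in the first class and 0.0408 in the second, so smaller differences pass among abundant transcripts. Median gene spans were 2469 bases for genes higher, 2013 for genes lower and 2287 for all tested genes. Among genes that changed by at least 2-fold, they were shorter in both directions, 1458 bases for those higher and 1370.5 for those lower. These genes were also low in level, with median TPM in myb3r4 of 2.35 and 6.37, against 15.2 for all tested genes. The part of level in the difference in span was not tested.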

How the data were processed

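RNA was sequenced from pooled inflorescence meristems. The authors deposited 1 table of TPM (transcript levels corrected for length and scaled to 1 total) per gene for 15 libraries. Salmon, FastQC and the build TAIR10 are named, without versions, per the submitters' processing notes. Because TPM keeps no read totals, depth and counting error are unknown, and the 3 libraries per group set the precision. Groups came from the labels.

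The fit took genes that reached 1 TPM in 3 or more libraries, in limma 3.58.1 (R 4.3.3) on log2(TPM + 0.5) values, with 5 group means and variances moderated along a trend. Tests were two-sided with Benjamini-Hochberg adjustment over all genes tested and a threshold of 0.05. Lists (27, with 393 of 418 entries tested) are described by counts and medians, with no list test. Members and lists were chosen with earlier results of these data known. Named genes are the MYB3R family, the 10 largest changes in each direction with libraries that do not overlap (also those of at least 10 TPM), the 5 largest interactions in each direction, and list members; a selection of these is described. Symbols, positions and upstream sequence came from the RefSeq annotation of TAIR10.1. The fit was tested on simulated data.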

Additional observations from a re-analysis of the deposited data

Results flagged for a closer look

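For each gene below, the step from myb3r4 to the double mutant and the step from Col-0 to myb3r1 differed by an interaction test in limma (adjusted p under 0.05, 62 of the genes described). Values are interactions in log2, positive where the step to the double mutant was the more positive one. Of the 62, 12 lost the call under some other setting or without 1 library. The call was lost in 14 of 21 repeats for CKX2, in 12 of 22 each for CYP704B1, LTP12 and PCNA2, in 11 each for BT2 and AT5G59690, in 10 each for CBP60G and IPT3, in 6 for ARR12, in 3 for CYCD3;3 and in 1 each for FAMA and RBCS1A.

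Among the MYB3R genes the interaction was -0.39 for MYB3R1 and 0.43 for MYB3R4. For MYB3R1 it came from a level higher by 0.39 in myb3r1 than in Col-0. Cyclins and their kinases had 0.68 for CYCB1;1, 0.69 for CYCA2;4, 0.56 for CYCB3;1, 0.47 for CDKB1;1, 0.39 for CYCA1;1 and 0.33 for CYCD3;3. CYCA1;1 itself did not pass between myb3r4 (37.0 to 37.6 TPM) and the double mutant (34.7 to 37.3 TPM), and fell by 0.43 in myb3r1. Genes of spindle and cell plate had 0.47 for WYR, 0.38 for MKK6, 0.58 for KIN12A, 0.57 for KIN12B and 0.52 for ATK5, while SCL28 had -1.04, KN -0.71 and PATL4 -0.39. Chromosome and replication genes had 0.66 for 3xHMG-box2, 0.65 for TOPII, 0.49 for CDC6B, 0.22 for PCNA2 and 0.31 for the histone gene AT5G59690. CDK inhibitors had -1.14 for SMR2, -0.50 for KRP6, 0.80 for SMR4 and -0.71 for SMR6.

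Cytokinin genes had -0.96 for ARR15, -0.67 for ARR9, 0.36 for ARR12, 0.78 for LOG5, 0.85 for LOG3, -1.10 for IPT3 and -0.86 for CKX2. Meristem and flower genes had -0.37 for STM, 1.07 for LFY, 0.29 for PI and 3.99 for MAF5. Defence genes had 4.26 for BGL2, 2.87 for PR5, 1.56 for PNP-A, 0.97 for DMR6 and 1.51 for CBP60G. Further values were 2.94 for GSTF7, 2.02 for CHI, 2.00 for AT2G43620 and 2.42 for CML41, and the uncharacterized AT1G58225 had 3.08. The genes named here are all positive, but of 20 tested members of the salicylic acid list 6 had a positive called interaction and 3 a negative one. The jasmonate genes AOC2 and VSP1 had 1.42 and 0.55. Anther and meiosis genes had 0.86 for CYP704B1, 1.15 for TDF1, -0.42 for LTP12 and 0.71 for DMC1. Leaf and clock genes had 2.23 for LHCB1.1, 1.37 for LHCB2.1, -0.31 for RCA, -0.29 for RBCS1A, -0.54 for FAMA and 0.97 for PRR7, and BT2 had -2.93.

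The largest positive interaction was that of MRD1. It was at 43.4 to 49.2 TPM in Col-0 and at most 0.578 TPM in every myb3r1, myb3r4 and double-mutant library, an interaction of 5.61. Its own step to the double mutant, -0.46, was lost in 5 of 16 repeats. HEI10, which overlaps MRD1 in position, had 1.81, with means of 7.43 TPM in Col-0 and 1.93 to 2.84 TPM in the mutants. AT5G35935, uncharacterized, was at most 0.0254 TPM in Col-0 and 6.81 to 8.65 TPM in the mutants, an interaction of -3.69, and its step of 0.26 from myb3r4 was lost in 12 of 16 repeats.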

How the results depend on the processing

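The count of genes called between the double mutant and myb3r4 was 7544, ran from 6281 to 7535 under the other settings and from 5531 to 6822 when 1 library was left out. The interaction count of 2665 ran from 2430 to 2867 and from 1891 to 2517. For myb3r1 against Col-0 the count of 1360 ran from 1158 to 1455 under the other settings, but from 662 to 1258 when 1 library was left out, where 5 of the 6 values fell by more than 1.5 times; the cause was not tested. Of 1403 repeats of the changes of 88 named genes that were called, 37 lost the call and 0 reversed, and 81 genes kept it throughout. Of 1361 repeats of 62 interactions, 103 lost the call and 0 reversed. The counts with chromosomes set to the library median were added after seeing the data.

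Libraries with the same replicate number in the double mutant and myb3r4 did not deviate together (r = 0.0477, 0.00158 and -0.125), so the number is not taken as a pairing. With the replicate block 7245 genes were called in that comparison, 1158 in myb3r1 against Col-0 and 2430 in the interaction. Among named genes SMR6 (adjusted p = 0.064) and AT5G35935 (adjusted p = 0.0586) lost their calls, as did the interactions of PCNA2, AT5G59690, CKX2, CBP60G, CYP704B1, LTP12 and BT2 (adjusted p between 0.0533 and 0.0726). The salicylic acid list had 2 members lower in place of 4. With 3 libraries a group and no read totals, differences of genes near 0 TPM have wide errors.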
